A study of Mus musculus with 74 samples.

Results

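Epithelium of the embryonic small intestine that had lost Cdx2 from about E10 was set against wild-type glandular stomach of the same stage, E16, to see how far they matched. The comparison was defined by the labels of the libraries: 3 RNA-seq libraries of Cdx2-deleted small intestine against 2 of wild-type hindstomach, 5 of the 74 samples of the series. The deleted embryos carried floxed Cdx2 alleles and Shh-Cre (Cdx2f/f; Shh-Cre) on a mixed B6;129 background, and the hindstomach came from CD1 wild-type embryos. Neither group was treated. Strain and genotype cannot be told apart in this comparison. Shh-Cre expresses the recombinase from the Shh locus, which is active in the early gut endoderm. Cells of both tissues were freed with trypsin and sorted for Epcam, a surface protein of epithelia. Wild-type CD1 small intestine and forestomach of E16, 2 libraries each, are given beside them as reference. Nothing in the labels says whether libraries of a group came from separate embryos or litters. The p-values therefore measure a spread between libraries of a group, which may not be one between embryos. That spread was estimated jointly over all 27 embryonic libraries in 13 groups, not from the compared libraries alone.

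CDX2 is a homeodomain transcription factor that the intestinal endoderm switches on as it becomes distinct from the stomach. It binds promoters and distal elements of genes for the brush border, for digestive enzymes and for nutrient transport. The mouse stomach has a squamous forestomach and a glandular hindstomach, and glandular stomach makes surface and neck mucus, pepsinogens and acid. SOX2 is a foregut transcription factor of stomach and oesophagus, and loss of CDX2 from early endoderm is known to let foregut genes appear in the intestine.

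Total counts were 12812432 to 22997638 in the knockout, 18446460 and 18956478 in the hindstomach, 16685602 and 18306362 in the small intestine, and 5970227 and 6335340 in the forestomach. Levels below are CPM, read counts scaled to a common library size by TMM scaling. The TMM factors were 0.651, 0.542 and 0.632 in knockout replicates 1, 2 and 3 and 1.22 and 1.21 in hindstomach. They were 1.09 and 1.10 in small intestine and 1.09 and 1.03 in forestomach. A lower factor raises the CPM of every gene in a library. Shares given as a percent of counts do not use these factors, so the 2 scales differ. A gene was called when its edgeR quasi-likelihood adjusted p was under 0.05 and its fold change at least 2, and it was counted as within 2-fold when the 95% interval of its fold change lay inside a factor of 2 in both directions. Markers of mesenchyme, blood, immune, endothelial, neural and mesothelial cells (46 genes) took 1.18% and 1.29% of the hindstomach counts and 0.0219% to 0.0373% of the knockout counts, with 6 of 46 at 0 in each hindstomach library and 9 to 13 in the knockout libraries. The hindstomach libraries held the gastric genes Atp4a, Pgc and Muc6, and the knockout libraries, labelled small intestine, held Cdx2 and Vil1 far below wild-type small intestine. In bulk samples, fewer cells of a type and less RNA per cell cannot be told apart.

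Of 17239 genes tested, 9697 (56.3%) differed between the knockout intestine and hindstomach, 3730 (21.6%) higher and 5967 (34.6%) lower in the knockout. Only 2173 genes (12.6%) were within 2-fold. In all, 13136 genes (76.2%) had no overlap between the 3 knockout and the 2 hindstomach values. Against wild-type small intestine of E16, which shares the knockout libraries with that comparison, 8875 genes (51.5%) were called, 4122 higher (23.9%) and 4753 lower (27.6%). Between hindstomach and small intestine, both CD1, 4422 genes (25.7%) were called, 3025 higher in hindstomach (17.5%) and 1397 lower (8.1%). Over all tested genes the median log2 fold change between knockout and hindstomach was -0.49 with TMM and -0.35 with RLE scaling. Lower genes outnumbered higher ones with RLE scaling (4066 higher and 5500 lower) and with DESeq2 (4026 and 5228) as well. Rescaling the knockout libraries so that the median gene did not change, which evens the calls by construction, gave 4841 higher and 4500 lower. Among the 10527 genes at 5 CPM or more in both E14 hindstomach libraries, where the non-epithelial markers took at most 0.0309% of counts, 2728 were called higher and 3582 lower. The part of non-epithelial RNA in the count of lower genes was not tested.

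**Figure D1:**
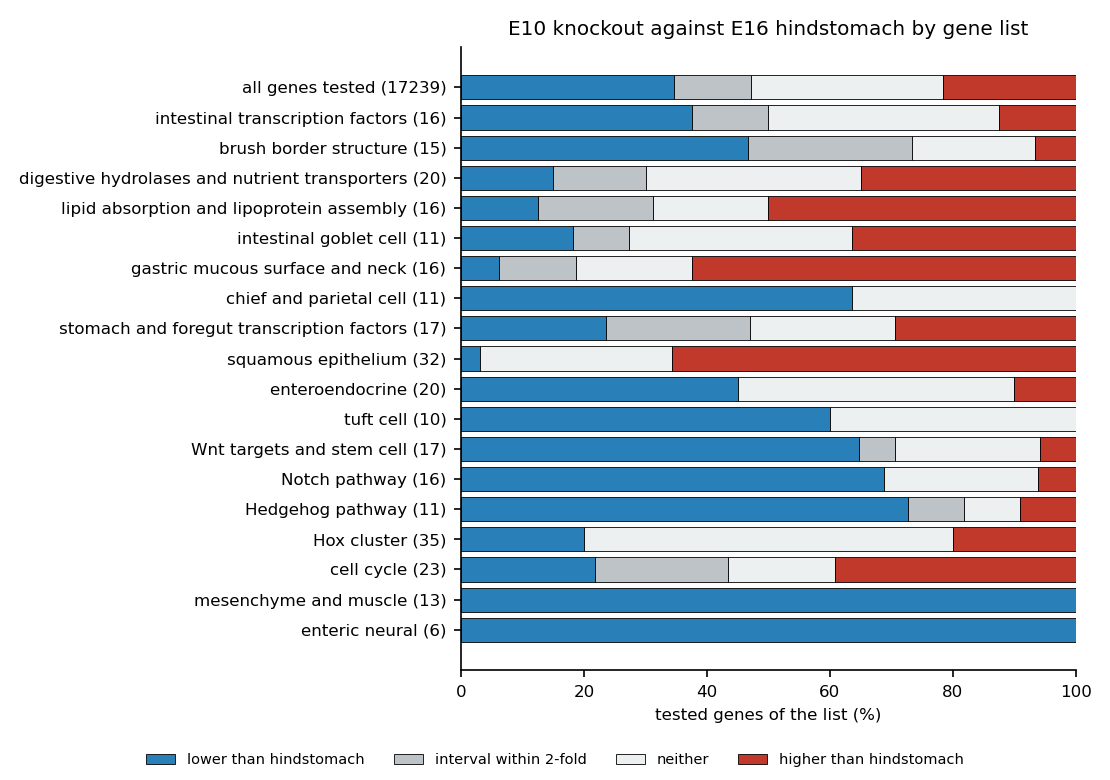
Share of each gene list's tested members (x axis, percent; number tested in brackets) called lower or higher in the E10 knockout than in E16 hindstomach, with a 95% interval inside 2-fold, or neither. Gastric mucous genes and squamous genes were mostly higher (10 of 16 and 21 of 32), chief and parietal genes were never called higher (0 of 11), and mesenchymal and neural markers were all lower (13 of 13 and 6 of 6), beside 21.6% of all genes higher and 34.6% lower.

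Cdx2 itself checks the labels. Its level was 17.4, 14.5 and 27.5 CPM in knockout replicates 1, 2 and 3, 12.1 and 13.05 CPM in hindstomach, and 196 and 218 CPM in wild-type small intestine. The knockout libraries sat slightly above both hindstomach libraries without overlap and far below small intestine. The log2 fold change against hindstomach was 0.64 (SE 0.28, edgeR adjusted p 0.0521) and was not called. With the knockout rescaled to a median change of 0, which raises every gene by about the same amount, it was 1.13 and was called (edgeR adjusted p 0.00194). Counts per gene do not show whether these reads came from the deleted exons.

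Of 16 intestinal transcription factors tested, 2 were higher than in hindstomach, 6 were lower (37.5%, near the 34.6% of all genes) and 2 were within 2-fold (12.5%, beside 12.6%), with a median log2 fold change of -0.90. Cdx1, the paralogue of Cdx2, was at 2.40, 2.18 and 10.6 CPM in the knockout, 9.54 and 10.9 in hindstomach, and 324 and 299 in small intestine. Isx, which represses vitamin A uptake genes in enterocytes, was at 0.735, 1.68 and 12.8 CPM against 10.03 and 11.2 in hindstomach and 118 and 124 in small intestine. In both genes replicates 1 and 2 lay below hindstomach, while replicate 3 lay between the hindstomach values for Cdx1 and above them for Isx. Neither was called (Cdx1 log2 fold change -1.12, SE 0.55, edgeR adjusted p 0.0755; Isx -1.23, SE 0.65, adjusted p 0.0997). Both were called lower without replicate 3, at -2.15 and -3.18. Creb3l3, a regulator of lipid genes, had replicates 1 and 2 below hindstomach and replicate 3 above it, with 4.27, 3.10 and 20.4 CPM against 11.4 and 11.1 in hindstomach and 320 and 321 in small intestine. It was not called (-0.39, SE 0.47, edgeR adjusted p 0.475), but was called lower without replicate 3 (-1.60).

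Hnf4g, a nuclear receptor of enterocytes, was at 29.3, 34.8 and 39.8 CPM in the knockout, 19.9 and 25.4 in hindstomach and 296 and 293 in small intestine, and was not called against hindstomach (0.60, SE 0.29, edgeR adjusted p 0.0761; 1.10 and called with the knockout rescaled to a median change of 0). Its relative Hnf4a was lower in the knockout than in either tissue, at 23.7, 23.3 and 44.7 CPM against 125 and 103 in hindstomach and 389 and 349 in small intestine (log2 fold change against hindstomach -1.92, SE 0.32, edgeR adjusted p 2.6e-05). Prdm1, a repressor active in fetal gut epithelium, was at 1.67, 2.01 and 3.58 CPM against 8.79 and 9.79 in hindstomach (-2.002, SE 0.25, edgeR adjusted p 5.4e-07). Onecut2 went the other way, at 197, 216 and 262 CPM in the knockout against 17.1 and 14.8 in hindstomach and 21.8 and 16.8 in small intestine, above all 4 wild-type libraries of both organs (3.82, SE 0.21, edgeR adjusted p 7.5e-11).

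Of 15 brush border genes tested, 1 was higher than in hindstomach, 7 (46.7%, beside 34.6% of all genes) were lower and 4 were within 2-fold (26.7%, beside 12.6%), with a median log2 fold change of -0.63 against hindstomach, and 13 of the 15 were lower than in small intestine (86.7%, beside 27.6% of all genes). Villin (Vil1), an actin bundler of microvilli, was at 27.9, 25.2 and 30.3 CPM in the knockout, 58.3 and 52.9 in hindstomach and 537 and 561 in small intestine. All knockout values lay below both hindstomach values. The difference of -1.004 on the log2 scale (SE 0.23, edgeR adjusted p 0.00069) was just past the fold minimum. It fell short of it with RLE scaling (-0.86), DESeq2 (-0.86), only E16 libraries (-0.83), only the libraries compared (-0.81) and equal depth (-0.95). The same held with the knockout rescaled to a median change of 0 (-0.51), without knockout replicate 2 (-0.77) and without hindstomach replicate 1 (-0.94). Espin (Espn), another actin bundler, was at 3.94, 3.27 and 5.43 CPM against 40.3 and 34.7 in hindstomach and 69.2 and 62.3 in small intestine (-3.18, SE 0.17, edgeR adjusted p 4.9e-12). Cdh17, an intestinal cadherin, was at 16.2, 18.1 and 27.1 CPM against 28.0 and 25.7 in hindstomach and 989 and 936 in small intestine, and was not called against hindstomach (-0.41, SE 0.75, edgeR adjusted p 0.649). The higher member was Anks4b, a scaffold of the links between microvilli. It was at 5.81, 5.87 and 11.7 CPM against 1.06 and 4.74 in hindstomach (1.39, SE 0.55, edgeR adjusted p 0.0353). It was not called by DESeq2 (adjusted p 0.0629) or in a fit of only the libraries compared (1.61, edgeR adjusted p 0.0706). Nor was it called without knockout replicate 3 (1.005, edgeR adjusted p 0.128) or at equal depth (1.27, edgeR adjusted p 0.0622). Without hindstomach replicate 1 the difference was 0.68.

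The digestive hydrolases and transporters were mixed. Of 20 tested, 7 were higher than in hindstomach (35%, beside 21.6% of all genes), 3 lower (15%, beside 34.6%) and 3 within 2-fold (15%, beside 12.6%; median log2 fold change 0.47), and 14 were lower than in small intestine (70%, beside 27.6%). Intestinal alkaline phosphatase (Alpi) was at 12.8, 16.7 and 29.3 CPM against 57.7 and 60.9 in hindstomach and 676 and 615 in small intestine (-1.62, SE 0.47, edgeR adjusted p 0.00521; not called by DESeq2, adjusted p 0.0894). Aminopeptidase N (Anpep) was also lower, at 9.62, 19.2 and 33.0 CPM against 74.2 and 70.3 (-1.84, SE 0.30, edgeR adjusted p 2.1e-05). Lactase (Lct) was at 3.47, 6.63 and 7.53 CPM against 11.9 and 9.40 in hindstomach and 483 and 423 in small intestine. The difference of -0.90 on the log2 scale (SE 0.32, edgeR adjusted p 0.0177) did not reach the fold minimum, and was called at -1.10 without knockout replicate 3 and -1.07 without hindstomach replicate 2. Maltase-glucoamylase (Mgam) was higher, at 22.3, 28.9 and 8.52 CPM against 1.55 and 2.22 in hindstomach, and below the 110 and 89.0 CPM of small intestine (3.42, SE 0.58, edgeR adjusted p 4.3e-05). In all 7 higher genes replicate 3 was the lowest knockout library, and in 3 of them it overlapped hindstomach. Sucrase-isomaltase (Sis) was at 64.3, 76.8 and 0 CPM against 0 and 1.26 (not called by DESeq2, adjusted p 0.0718), the protease Tmprss15 at 3.87, 5.45 and 0 against 0.266 and 0.174, and the sugar transporter Slc2a2 at 10.1, 7.05 and 0.865 against 1.42 and 0.870. The trehalase gene Treh had 3, 3 and 1 counts in the knockout and 0 in hindstomach.

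Lipid absorption was the intestinal group with the largest share above hindstomach. Of 16 tested genes, 8 were higher (50%, beside 21.6% of all genes), 2 lower (12.5%, beside 34.6%) and 3 within 2-fold (18.8%, beside 12.6%), with a median log2 fold change of 1.30, and 11 were lower than in small intestine (68.8%, beside 27.6%). Fabp2, the intestinal fatty acid binding protein, was at 956, 1620 and 866 CPM in the knockout, 28.7 and 26.97 in hindstomach and 1496 and 1495 in small intestine. Knockout and hindstomach were far apart, and the knockout values lay on both sides of the small intestine values (knockout against hindstomach 5.37, SE 0.23, edgeR adjusted p 6.8e-12; against small intestine -0.38, not called). Fabp1, the liver-type binding protein, was at 561, 1201 and 2594 CPM against 63.8 and 64.7 in hindstomach and 1855 and 1813 in small intestine (4.50, SE 0.37, edgeR adjusted p 5.0e-08).

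The apolipoprotein genes Apoa1, Apoc2 and Apoc3 were also higher. Apoa1 was at 1435, 1786 and 1583 CPM in the knockout against 169 and 169 in hindstomach and 2541 and 2448 in small intestine (3.25 against hindstomach, SE 0.16, edgeR adjusted p 9.8e-12). Apoc2 was higher than in hindstomach by 4.43 (SE 0.35) and Apoc3 by 4.03 (SE 0.38) on the log2 scale. Mogat2, which rebuilds triglyceride in enterocytes, was higher by 2.31 (SE 0.17), at 75.4 to 104 CPM against 17.2 and 18.4. The assembly genes of the chylomicron, Apob and Mttp, were not called. Apob was at 20.8, 31.5 and 28.7 CPM against 24.8 and 26.6 in hindstomach and 959 and 804 in small intestine (0.07, SE 0.31), and Mttp at 38.9, 40.8 and 52.4 CPM against 59.8 and 53.5 in hindstomach and 1750 and 1677 in small intestine (-0.37, SE 0.19). Both were within 2-fold of hindstomach.

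Promoters of 2 genes that hold the core letters of the known CDX2 motif, TTTATGG or its reverse complement CCATAAA on the strand shown, are printed because their genes went in opposite directions against hindstomach: Fabp1 was higher and Espn lower, and of the 3 promoters listed for Espn the one with the letters is shown. They are RefSeq promoters of build GRCm38.p6, from 250 bases before to 50 after the start, 5′ to 3′ on the gene's strand, with the motif in capitals. Fabp1 lies on the plus strand at chr6:71199629-71199928 and Espn on the minus strand at chr4:152128876-152129175.
Fabp1: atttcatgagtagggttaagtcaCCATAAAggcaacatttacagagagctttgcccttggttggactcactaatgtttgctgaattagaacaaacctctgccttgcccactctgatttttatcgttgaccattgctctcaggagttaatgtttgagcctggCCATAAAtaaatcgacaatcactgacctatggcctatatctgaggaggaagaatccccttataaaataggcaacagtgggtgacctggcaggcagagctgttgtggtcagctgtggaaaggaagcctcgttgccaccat
Espn: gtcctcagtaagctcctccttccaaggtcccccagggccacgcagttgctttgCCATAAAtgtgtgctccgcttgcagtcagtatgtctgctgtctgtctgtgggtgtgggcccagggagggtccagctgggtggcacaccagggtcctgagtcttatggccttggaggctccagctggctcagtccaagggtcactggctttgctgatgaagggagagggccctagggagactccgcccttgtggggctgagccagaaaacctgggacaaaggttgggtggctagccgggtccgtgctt
The letters were present for 3.21% of the 27025 genes that have a RefSeq promoter, and of the tested genes with a promoter 2.34% did. The letters were in 1 of 11 lipid genes with a promoter, 1 of 12 brush border genes, 2 of 19 hydrolase and transporter genes, 0 of 9 intestinal transcription factor genes and 0 of 11 gastric mucous genes. For the genes that separated the organs at E14, described further on, the shares were 3.17% in the hindstomach set, 4.95% in the small intestine set and 4.12% in the forestomach set. A match is a description of the letters and not evidence of binding.

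**Figure D2:**
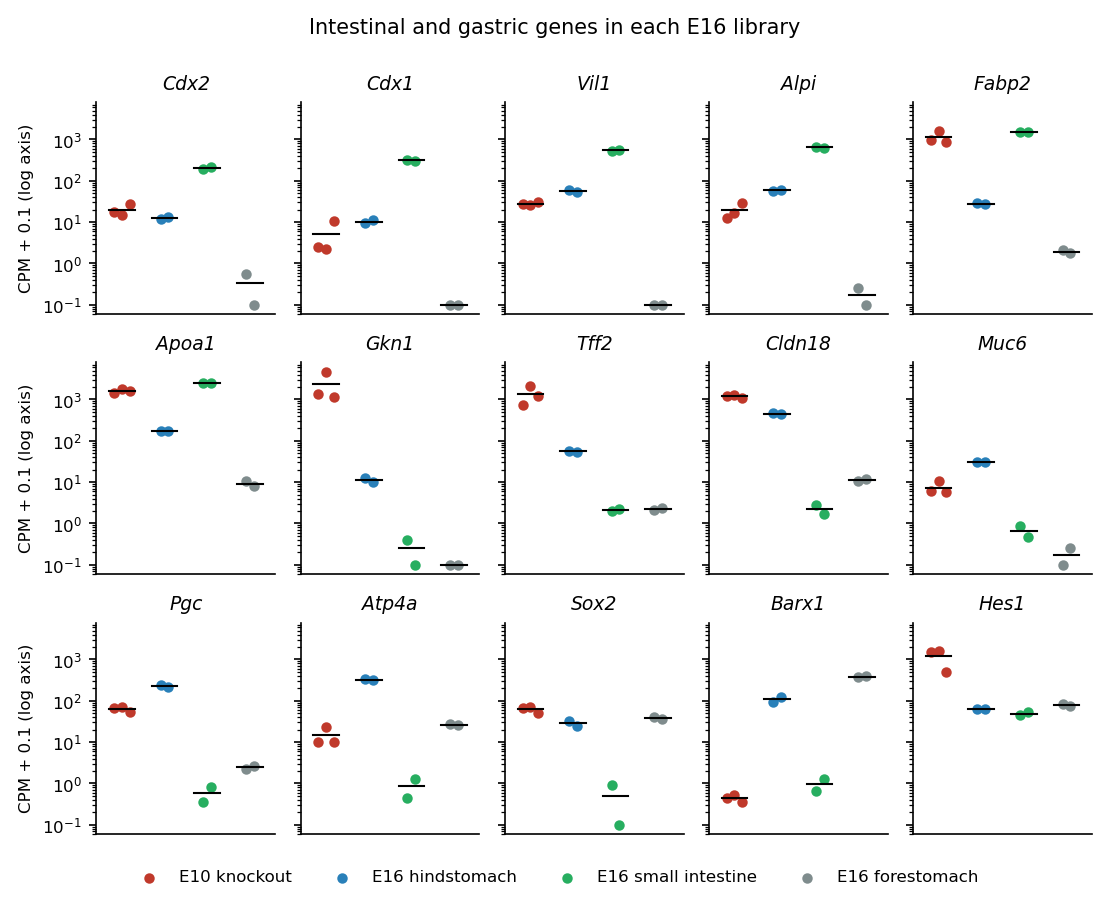
Level of 15 genes in each E16 library (y axis, CPM plus 0.1, log axis; points are libraries, lines are group means). Fabp2 and Apoa1 of the knockout lie near small intestine, Cdx2 and Cdx1 near hindstomach, and Gkn1, Tff2, Cldn18 and Hes1 above every wild-type library shown.

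Of 16 gastric mucous genes tested, 10 (62.5%, beside 21.6% of all genes) were higher in the deleted intestine than in hindstomach, 1 was lower and 2 were within 2-fold (12.5%, beside 12.6%), with a median log2 fold change of 1.49. Against small intestine 13 of 16 were higher (81.2%, beside 23.9% of all genes). Gastrokine 1 (Gkn1), a secreted protein of the gastric surface, was at 1372, 4587 and 1129 CPM in the knockout, 12.3 and 9.79 in hindstomach, and 0.302 and 0 in small intestine. The lowest knockout library lay far above both hindstomach libraries (7.74, SE 0.48, edgeR adjusted p 1.1e-07). Gkn2 was at 862, 2270 and 435 CPM against 12.02 and 10.7 (6.71, SE 0.62, edgeR adjusted p 9.2e-07). Tff2, the trefoil peptide of mucous neck cells, was at 719, 2075 and 1245 CPM against 57.5 and 53.5 in hindstomach and 1.91 and 2.18 in small intestine (4.60, SE 0.32, edgeR adjusted p 4.9e-09). Replicate 2 was highest for all 3 genes.

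Cldn18, whose gastric form seals the gastric epithelium, was at 1199, 1282 and 1083 CPM in the knockout against 469 and 446 in hindstomach and 2.72 and 1.58 in small intestine (1.38, SE 0.26, edgeR adjusted p 0.000207). Counts per gene do not separate its isoforms. Ctse, an aspartic protease of surface mucous cells, was higher by 1.53 (SE 0.36), Anxa10, an annexin of the gastric epithelium, by 2.01 (SE 0.24) and Psca, a surface antigen of stomach, by 2.73 (SE 0.39). Muc1, a membrane mucin, matched: it was at 416, 315 and 245 CPM against 335 and 297 in hindstomach and 9.61 and 10.1 in small intestine (0.04, SE 0.21), within 2-fold. Muc6, the mucin of neck and gland cells, was the member called lower, at 5.88, 10.3 and 5.68 CPM against 30.2 and 30.9 in hindstomach and 0.755 and 0.382 in small intestine (-2.06, SE 0.49, edgeR adjusted p 0.00117). It stood between both wild-type organs.

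Of 11 tested chief and parietal genes, 0 were higher than in hindstomach and 7 were lower (63.6%, beside 34.6% of all genes; median log2 fold change -1.95), while 8 of 11 were higher than in small intestine (72.7%, beside 23.9%). Progastricsin (Pgc) was at 65.7, 72.0 and 52.9 CPM in the knockout, 247 and 217 in hindstomach and 0.252 and 0.71 in small intestine (-1.87, SE 0.27, edgeR adjusted p 7.0e-06). Pepsinogen 5 (Pga5) was lower by a log2 fold change of -2.14 (SE 0.38) and gastric intrinsic factor (Gif) by -1.95 (SE 0.45). Atp4a, the catalytic subunit of the gastric proton pump, was at 10.2, 23.7 and 10.01 CPM against 329 and 324 in hindstomach and 0.352 and 1.20 in small intestine (-4.47, SE 0.48, edgeR adjusted p 2.2e-07). Its partner subunit Atp4b was at 155, 314 and 151 CPM against 282 and 326 and was not called (-0.56, SE 0.34, edgeR adjusted p 0.148). Of the 2 subunits of the pump only Atp4a was thus called, and the difference between the 2 was not tested. Bhlha15, a transcription factor of secretory cells, was at 7.55, 7.38 and 8.65 CPM, below the 59.7 and 54.6 of hindstomach and near the 8.76 and 8.13 of small intestine (-2.86, SE 0.68, edgeR adjusted p 0.00129).

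Of 17 stomach and foregut transcription factors tested, 5 were higher than in hindstomach (29.4%, beside 21.6% of all genes), 4 lower (23.5%, beside 34.6%) and 4 within 2-fold (23.5%, beside 12.6%), with a median log2 fold change of 0.33. Sox2 was at 66.4, 70.7 and 51.3 CPM in the knockout, 32.4 and 25.1 in hindstomach, 41.4 and 35.4 in forestomach and 0.805 and 0 in small intestine. On this TMM scale all knockout libraries lay above both stomach regions (1.13 against hindstomach, SE 0.38, edgeR adjusted p 0.0177). Without hindstomach replicate 2 the difference was 0.95, below the fold minimum. Pitx1, a homeodomain factor of stomach and hindlimb, was at 315, 282 and 246 CPM against 56.4 and 53.5 in hindstomach and 482 and 403 in forestomach (2.36, SE 0.22, edgeR adjusted p 6.8e-08). Pdx1, a factor of antrum, duodenum and pancreas, was at 37.8, 28.6 and 25.7 CPM against 7.54 and 9.27 (1.87, SE 0.38, edgeR adjusted p 0.00052). Klf5 was higher by 1.42 (SE 0.16).

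Foxq1, a gastric factor needed for mucin expression, matched hindstomach at 603, 590 and 370 CPM against 511 and 487, with 48.7 and 48.4 in small intestine (0.06, SE 0.17), and Gata6 was at 100, 103 and 97.95 CPM against 84.9 and 74.6 (0.33, SE 0.18). Both were within 2-fold. Gata4, made in glandular stomach and proximal intestine, was at 36.4, 50.2 and 71.1 CPM, below the 248 and 248 of hindstomach and the 215 and 230 of small intestine (-2.25, SE 0.19, edgeR adjusted p 4.4e-09). Barx1, a factor of the stomach mesenchyme, was at 0.334, 0.419 and 0.247 CPM against 96.0 and 124 in hindstomach (-8.31, SE 0.81, edgeR adjusted p 2.1e-09). Mesenchymal and muscle markers took 0.859% and 0.892% of hindstomach counts and 0.0100% to 0.0135% of knockout counts. Their part in the Barx1 difference was not tested.

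Squamous genes, which mark forestomach rather than glandular stomach, were mostly higher in the knockout than in hindstomach. Of 32 tested, 21 were higher (65.6%, beside 21.6% of all genes), 1 was lower and 0 were within 2-fold (beside 12.6% of all genes), with a median log2 fold change of 2.55. Trp63, the master regulator of stratified epithelium, was at 21.1, 19.5 and 7.91 CPM in the knockout, 3.06 and 1.91 in hindstomach, 77.3 and 86.6 in forestomach and 0 in both small intestine libraries (2.72, SE 0.54, edgeR adjusted p 0.000384). Krt13, a keratin of suprabasal layers, was at 1036, 827 and 241 CPM against 31.2 and 35.4 in hindstomach and 636 and 584 in forestomach (4.397, SE 0.40, edgeR adjusted p 8.3e-07). Its partner Krt4 was at 1079, 683 and 244 CPM against 85.6 and 75.7 in hindstomach and 1310 and 1621 in forestomach (3.05, SE 0.49). For these 3 genes replicate 3 was the lowest knockout library.

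Krt15, a basal keratin, was at 2383, 1757 and 577 CPM against 117 and 91.6 in hindstomach and 3854 and 3424 in forestomach (3.91, SE 0.38, edgeR adjusted p 2.5e-07). Sprr3, a cornified envelope protein, was at 106, 95.05 and 32.4 CPM against 0.444 and 0.957 in hindstomach and 99.9 and 106 in forestomach (6.78, SE 0.61). Serpinb5, a serpin of stratified epithelium, was at 111, 95.5 and 35.7 CPM against 2.71 and 1.04 in hindstomach and 100 and 72.4 in forestomach (5.43, SE 0.62). Lypd2 was at 133, 265 and 204 CPM, above hindstomach (10.1 and 9.09) and forestomach (20.2 and 22.8), with 0 counts in small intestine (4.39, SE 0.34). Krt7, a simple-epithelium keratin, was higher by 2.45 (SE 0.19). All 32 squamous genes together took 0.595%, 0.392% and 0.217% of the knockout counts, 0.135% and 0.123% in hindstomach, 1.28% and 1.12% in forestomach and 0.0620% and 0.0600% in small intestine.

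**Figure D3:**
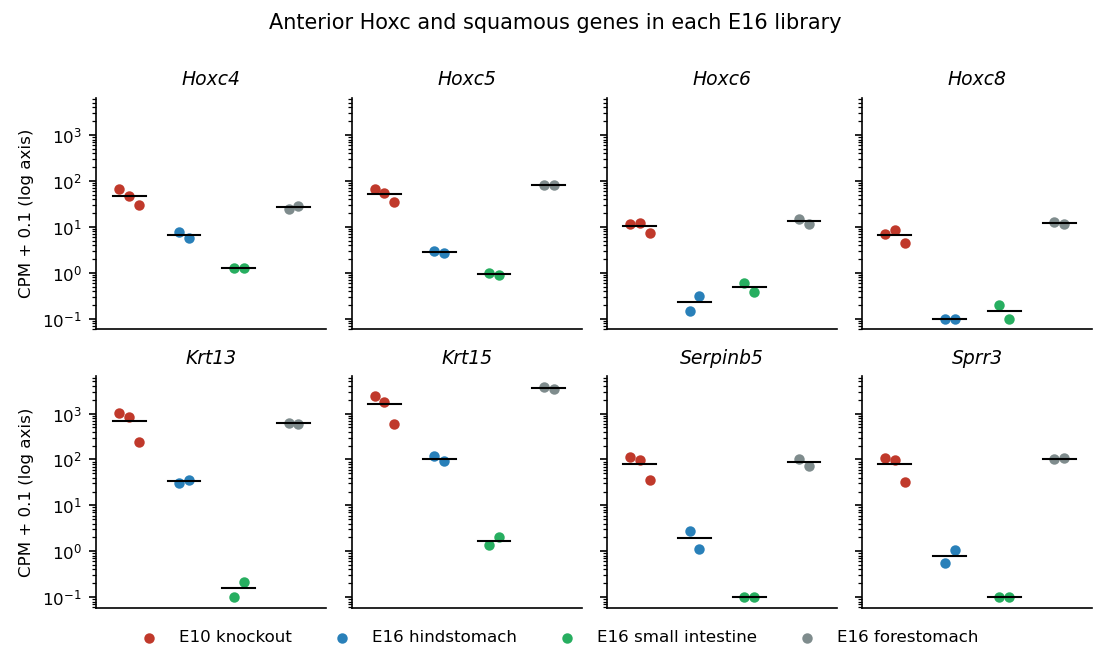
Level of 4 Hoxc genes and 4 squamous genes in each E16 library (y axis, CPM plus 0.1, log axis; points are libraries, lines are group means). The knockout lies above hindstomach and small intestine in each panel, with replicate 3 below the other knockout libraries in 8 of 8 panels.

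Hox genes record position along the body axis. Of 35 tested, 7 were higher than in hindstomach (20%, near the 21.6% of all genes) and 7 lower (20%, beside 34.6%; median log2 fold change 0), and the higher ones above 1 CPM lay in the Hoxc cluster. Hoxc4 was at 66.0, 47.6 and 30.0 CPM in the knockout against 7.54 and 5.65 in hindstomach, 1.16 and 1.20 in small intestine and 25.0 and 28.0 in forestomach (2.86, SE 0.34, edgeR adjusted p 3.5e-06). Hoxc5 was at 67.2, 55.4 and 35.5 CPM against 2.84 and 2.61 in hindstomach and 80.3 and 83.4 in forestomach (4.27, SE 0.70, edgeR adjusted p 0.000205). Hoxc6 was at 11.5, 11.9 and 7.29 CPM against 0.0444 and 0.217 in hindstomach and 14.8 and 11.5 in forestomach (6.23, SE 1.20). Hoxc8 had 0 counts in both hindstomach libraries and 4.32 to 8.47 CPM in the knockout, at least 50.1-fold higher with 3 counts per library as the floor (edgeR adjusted p 1.6e-05). Hoxb5 and Hoxd3 went the other way. Hoxb5 was at 0.371 to 1.09 CPM against 31.4 and 29.3 in hindstomach (-5.37, SE 0.42), and Hoxd3 at 0 to 0.618 CPM against 34.7 and 26.1 (-7.10, SE 1.36). Small intestine held 9.11 and 8.84 CPM of Hoxb5 and 1.66 and 0.873 of Hoxd3. The mesenchymal markers given beside Barx1 moved with both genes, and their part was not tested.

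Of 20 enteroendocrine genes 2 were higher and 9 (45%) lower, beside 34.6% of all genes (median log2 fold change -1.67), and of 10 tuft cell genes 0 were higher and 6 lower (median -3.84). Chromogranin A (Chga), a granule protein of endocrine cells, was at 2.94, 1.26 and 13.8 CPM against 86.1 and 73.9 in hindstomach and 34.2 and 42.9 in small intestine (-3.85, SE 0.57, edgeR adjusted p 8.7e-06). Ghrelin (Ghrl) was one of the 2 higher genes, at 52.8, 168 and 411 CPM against 39.4 and 55.5 (2.14, SE 0.49, edgeR adjusted p 0.00158). Replicate 1 lay inside the hindstomach range. The incretin gene Gip was the other, at 5.94, 11.4 and 12.4 CPM against 0.532 and 0.87 in hindstomach and 32.3 and 29.0 in small intestine (3.80, SE 0.53, edgeR adjusted p 1.1e-05). The tuft cell channel Trpm5 was at 0.371 to 0.534 CPM against 16.5 and 16.6 in hindstomach (-5.18, SE 1.00), and the kinase Dclk1, which neurons also make, at 0 to 0.336 CPM against 56.4 and 40.7 (-8.66, SE 1.11). Neural markers took 0.0818% and 0.0812% of hindstomach counts and at most 0.000702% of knockout counts, and their part in the Dclk1 and Chga differences was not tested.

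Of 11 goblet cell genes tested, 4 were higher than in hindstomach (36.4%, beside 21.6% of all genes) and 2 lower (18.2%, beside 34.6%; median log2 fold change 0.38), and against small intestine 2 were higher (18.2%, beside 23.9%) and 5 lower (45.5%, beside 27.6%). Tff3, the trefoil peptide of goblet cells, was at 164, 340 and 391 CPM against 54.1 and 68.0 in hindstomach and 649 and 609 in small intestine (2.29, SE 0.24, edgeR adjusted p 2.1e-07). Spink4 was at 84.0, 255 and 215 CPM against 11.4 and 19.1 in hindstomach and 259 and 239 in small intestine (3.59, SE 0.48). Agr2, a disulfide isomerase needed for mucin folding, was above both organs, at 1337, 2408 and 1846 CPM against 244 and 265 in hindstomach and 489 and 446 in small intestine (2.87, SE 0.55, edgeR adjusted p 0.00047). These 3 genes are from the 4 called higher, and the 2 lower genes and the 5 not called are not named here. Agr2, Spdef and Creb3l1 of this list were also called higher in E14 hindstomach than in E14 small intestine, so they are not particular to intestine.

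In 3 signalling lists most of the genes tested were lower, beside 34.6% of all genes. Of 17 Wnt target and stem cell genes 11 were lower and 1 higher (median log2 fold change -1.30), of 16 Notch pathway genes 11 were lower and 1 higher (median -1.79), and of 11 Hedgehog pathway genes 8 were lower and 1 higher (median -3.11). The non-epithelial markers fell with these lists: all 13 mesenchymal and muscle markers were lower (median -5.12), and their part in the 3 lists was not tested. Lgr5, a receptor of stem cells and a Wnt target, was at 6.21, 9.23 and 4.57 CPM against 43.0 and 27.7 in hindstomach and 37.6 and 25.3 in small intestine (-2.40, SE 0.30, edgeR adjusted p 7.8e-07). Smoc2 was lower by a log2 fold change of -4.18 (SE 0.20), and Ascl2, a stem cell transcription factor, was the higher member, at 22.0, 31.0 and 22.6 CPM against 9.67 and 8.22 (1.49, SE 0.33, edgeR adjusted p 0.000796).

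Hes1, a repressor that Notch signalling induces, was far above every wild-type library shown, at 1543, 1620 and 495 CPM against 64.6 and 62.1 in hindstomach, 45.2 and 52.4 in small intestine and 83.4 and 74.4 in forestomach (4.27, SE 0.29, edgeR adjusted p 1.9e-09). The receptor gene Notch1 was lower, at 12.8, 19.5 and 18.7 CPM against 43.0 and 50.5 (-1.47, SE 0.21, edgeR adjusted p 3.2e-06; -0.97 and not called with the knockout rescaled to a median change of 0). The Hedgehog ligand gene Ihh was within 2-fold of hindstomach, at 171, 124 and 144 CPM against 188 and 181 (-0.33, SE 0.16). Shh, whose locus carries the Cre in the knockout, was at 16.9, 38.8 and 21.5 CPM against 12.6 and 12.96. The difference of 1.01 on the log2 scale (SE 0.25, edgeR adjusted p 0.00187) was 0.75 without knockout replicate 2 and 0.98 without hindstomach replicate 1, and was then not called. Smo and Gli3, which act in cells that receive the ligand, were lower by log2 fold changes of -3.11 (SE 0.15) and -5.28 (SE 0.33).

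Among 9 general epithelial genes 4 were higher (44.4%, beside 21.6% of all genes) and 0 lower. Epcam, the protein used in the sort, was at 2439, 2133 and 1849 CPM against 421 and 400.4 in hindstomach (2.38, SE 0.12, edgeR adjusted p 7.8e-12). Of 18 claudins 5 were higher and 5 lower (27.8% each, beside 21.6% and 34.6% of all genes). Cldn7 was at 2456, 2093 and 1879 CPM against 403 and 367 in hindstomach and 1217 and 1240 in small intestine (2.48, SE 0.11), and Cldn4 was at 22.6, 31.9 and 19.3 CPM against 215 and 209 in hindstomach and 429 and 465 in small intestine (-3.11, SE 0.37). Of 23 cell cycle genes 9 were higher (39.1%, beside 21.6%), 5 lower (21.7%, beside 34.6%) and 5 within 2-fold (21.7%, beside 12.6%). The mitotic kinase Cdk1 was at 514, 619 and 521 CPM against 75.1 and 82.5 (2.81, SE 0.12) and cyclin Ccnd2 at 1684, 1695 and 1477 CPM against 356 and 343 (2.21, SE 0.13), while the replication licensing gene Mcm6 was at 81.6, 81.0 and 114 CPM against 291 and 276 (-1.62, SE 0.12). The list therefore did not move as a unit.

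Genes that separated the organs 2 days earlier gave a second view, since the E14 libraries enter neither group compared. At E14, 601 genes were higher in hindstomach than in small intestine, 577 were higher in small intestine than in hindstomach and 354 were higher in forestomach than in both. The median level of the hindstomach set was 3.48, 3.59 and 3.47 log2 CPM in the knockout, 4.87 and 4.77 in E16 hindstomach and 2.82 and 2.71 in E16 small intestine. The knockout libraries lay between the organs. Of the 601 genes, 119 were higher in the knockout than in hindstomach (19.8%, beside 21.6% of all genes), 292 were lower (48.6%, beside 34.6%) and 46 were within 2-fold (7.65%, beside 12.6%), with a median log2 fold change of -1.08, beside -0.49 over all genes. Against small intestine the median was 0.72, and hindstomach itself was 1.90 above small intestine, in comparisons that share libraries.

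The intestinal set was at 2.68, 2.85 and 2.86 log2 CPM in the knockout, 4.11 and 4.18 in hindstomach and 4.86 and 4.87 in small intestine, so the knockout lay below both organs. In hindstomach this set had stood at 1.37 and 1.40 log2 CPM at E14. It holds 16 of the 46 non-epithelial markers, among them Col1a1, Acta2, Lum, Csf1r and Ptprc, and 13 of these 16 were called lower in the knockout than in hindstomach. Those 46 markers took 0.0290% and 0.0309% of hindstomach counts at E14 and 1.18% and 1.29% at E16, against at most 0.0373% in the knockout, and their part in the level of the set was not tested. The hindstomach set holds 1 of the 46 markers and the forestomach set 0. The 46 markers are not all non-epithelial genes, and the hindstomach set also holds Barx1, the factor of the stomach mesenchyme given above. The part of non-epithelial RNA in the median of the hindstomach set was not tested either. Of the 577 genes, 138 were higher than in hindstomach (23.9%, beside 21.6% of all genes), 254 lower (44.0%, beside 34.6%) and 62 within 2-fold (10.7%, beside 12.6%; median log2 fold change -0.86, and -2.12 against small intestine). With the set drawn from a fit of the E14 libraries alone the median against hindstomach was -1.33. The forestomach set was at 3.49, 3.63 and 3.00 log2 CPM in the knockout, 3.90 and 3.78 in hindstomach, 1.96 and 2.14 in small intestine and 5.03 and 5.11 in forestomach. Here 109 of 354 genes were higher than in hindstomach (30.8%, beside 21.6% of all genes) and 110 lower (31.1%, beside 34.6%; median -0.01, -0.27 with the set drawn from the E14 libraries alone, and 1.41 against small intestine).

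**Figure D4:**
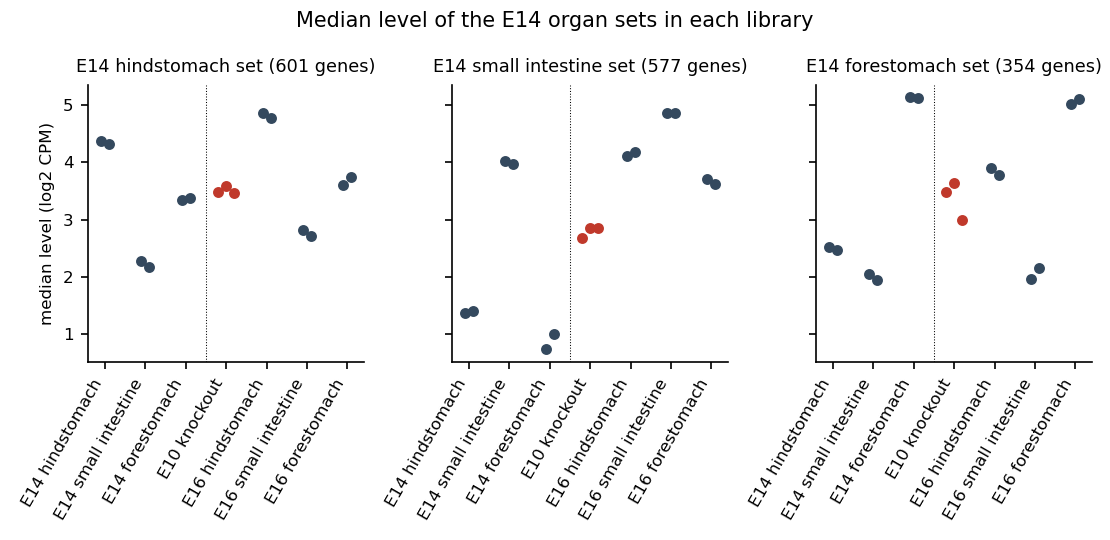
Median log2 CPM of the 3 E14 organ sets in each library of E14 (left of the dotted line) and E16. The knockout libraries (red) lie between hindstomach and small intestine for the hindstomach set, below both for the small intestine set, and between small intestine and hindstomach for the forestomach set.

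The 5 genes of each set with the highest E14 level did not move together either. In the hindstomach set Cym, the milk-clotting protease chymosin of the neonatal stomach, took 11.7%, 11.3% and 8.26% of all knockout counts. It took 2.83% and 2.64% in hindstomach and 0.0119% and 0.0126% in small intestine. On the TMM scale, which these shares do not use, the log2 fold change was 2.94 (SE 0.25, edgeR adjusted p 2.8e-08). Gstm1, a glutathione transferase, was higher by 1.95 (SE 0.13). Serpina6, the corticosteroid carrier, was at 0.0668, 4.28 and 7.91 CPM against 364 and 373 in hindstomach (-6.65, SE 0.54). Fos was lower by a log2 fold change of -1.23 (SE 0.29). It was not called without knockout replicate 3 (-0.86) or with the knockout rescaled to a median change of 0 (-0.73). A fit of only the libraries compared did not call it either (-1.02, edgeR adjusted p 0.0772). Aplp2 did not reach the fold minimum (-0.94, SE 0.10, and -1.03 without hindstomach replicate 2). In the intestinal set Mif was higher by 1.92 (SE 0.17), Rn45s, the ribosomal RNA precursor, by 1.29 (SE 0.28) and Tpm1 by 1.03 (SE 0.12; 0.94 and not called without knockout replicate 1). Oat, at 3328 and 3336 CPM in small intestine, was at 220.4, 175 and 467 CPM in the knockout against 209 and 221 in hindstomach, within 2-fold (0.42, SE 0.24), and Tfrc was at -0.78 (SE 0.17) and not called. In the forestomach set Igfbp2, Krt15 and Anxa1 were higher by 2.43 (SE 0.16), 3.91 (SE 0.38) and 2.61 (SE 0.23). Igfbp5 was lower by a log2 fold change of -1.36 (SE 0.17; -0.87 and not called with that rescaling), and Fgfr2 was not called (-0.97, SE 0.13; called at -1.001 without hindstomach replicate 1).

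The 12 genes with the largest difference in each direction, among those at 20 CPM or more in the higher group, showed what set the ends of the distribution. The 12 highest were AY761184, Defa24, Rnaset2b, Ang4, Gsta1, Guca2b, Gkn1, Leap2, Krt34, Sprr3, Upk3bl and Guca2a. Guca2a and Guca2b encode the gut peptides guanylin and uroguanylin. Guca2a was at 27.9, 63.3 and 119 CPM in the knockout, 0.577 and 0.696 in hindstomach and 297 and 266 in small intestine (6.76, SE 0.55, edgeR adjusted p 9.0e-09). Guca2b was at 219.8, 350.5 and 40.8 CPM against 0.932 and 0.609 in hindstomach and 69.8 and 60.8 in small intestine (8.04, SE 0.87). Gsta1, a glutathione transferase, was at 357, 548 and 270.3 CPM against 1.55 and 1.17 in hindstomach and 1.91 and 2.62 in small intestine (8.16, SE 0.38). Defa24, an alpha-defensin, had 0 counts in hindstomach and 27.1, 60.7 and 4.82 CPM in the knockout, and AY761184 had 1298 and 1916 counts in replicates 1 and 2, 1 in replicate 3 and 0 in hindstomach. Ang4, an antimicrobial ribonuclease, was at 29.4 and 37.7 CPM in replicates 1 and 2 and 0.741 in replicate 3, that is 440, 450 and 6 counts, against 0 and 2 counts in hindstomach, so replicate 3 stood far below the others. Leap2, a liver and gut antimicrobial peptide, was at 30.5 and 49.4 CPM in replicates 1 and 2 and 3.58 in replicate 3. Krt34 was not called by DESeq2 (adjusted p 0.227). Rnaset2b (16.7, 40.4 and 32.2 CPM, against 1 and 0 counts in hindstomach), Defa24, AY761184, Ang4 and Gsta1 have near-identical copies, and their values are uncertain where reads could be split between copies.

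The 12 lowest were Vip, Agtr2, Stmn4, Syn1, Fam163a, Gprin1, Slc18a3, Nrsn1, Dlx2, Scn3b, Slc5a7 and Gdf10, and each had 0 counts in all 3 knockout libraries. Vip, a neuropeptide of enteric neurons, was at 118 and 119 CPM in hindstomach, and the knockout was at least 433-fold lower. Syn1, a synaptic vesicle protein, was at 55.8 and 49.7 CPM and at least 192-fold lower in the knockout, and Slc18a3, the vesicular acetylcholine transporter, at least 114-fold lower. Slc5a7, the choline transporter, was at least 91.3-fold lower but was not called by DESeq2 (adjusted p 0.115). All 6 neural markers of the list, among them Sox10 and Ret, were called lower in the knockout, beside 34.6% of all genes, and wild-type small intestine held 0.00598% and 0.00707% of counts in them. The part of neural cells in the hindstomach sort in these differences was not tested.

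Rank correlation over all 17239 tested genes gave a description of overall likeness. It runs across genes, which are not independent, and all libraries share the same gene table. The mean Spearman's rho of the 3 knockout libraries with E16 hindstomach was 0.773, with E16 small intestine 0.815, with E16 forestomach 0.738, with E14 small intestine 0.820, with E14 hindstomach 0.813 and with E12 forestomach 0.815. The knockout libraries reached 0.959 to 0.976 among themselves and the hindstomach pair 0.989. The 46 non-epithelial markers took 0.214% and 0.228% of counts in E16 small intestine, 1.18% and 1.29% in E16 hindstomach and 3.81% and 4.69% in E16 forestomach. In the knockout they took at most 0.0373%. E18 small intestine, at 0.0288% and 0.0284%, had a mean rho of only 0.698. The part of these markers in the likeness was not tested. Over the genes of the E14 hindstomach and intestinal sets alone, the mean was 0.517 with E16 hindstomach, 0.514 with E14 hindstomach, 0.459 with E14 forestomach and 0.448 with E16 small intestine. The order of the mean for the 2 E16 organs therefore differed between all genes and the genes that separated these organs at E14. The gap over the set genes was small in knockout replicate 3, at 0.523 and 0.511 with hindstomach and 0.501 and 0.497 with small intestine.

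**Figure D5:**
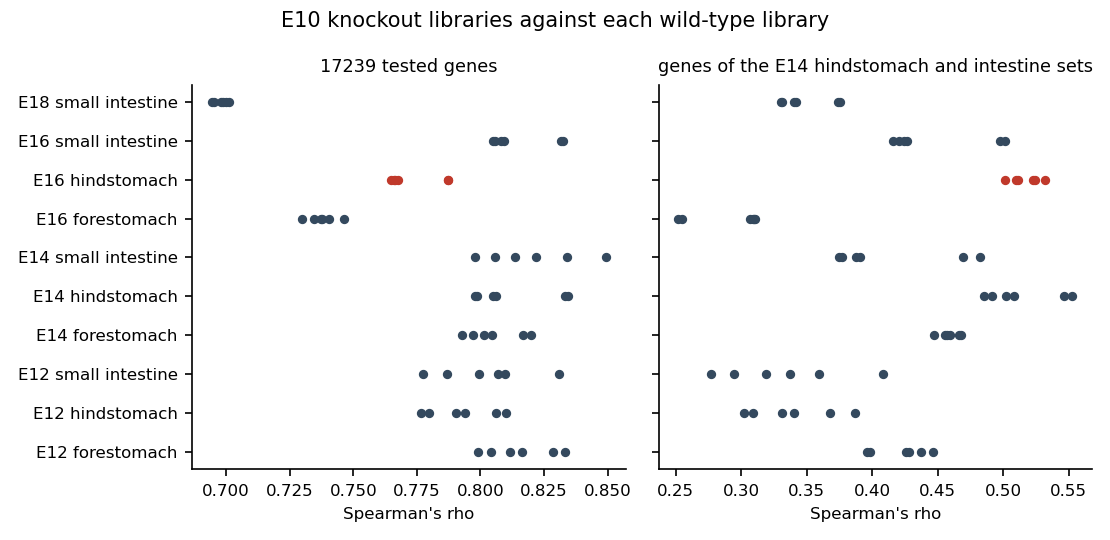
Spearman's rho (x axis) of each E10 knockout library with each wild-type library, over all tested genes (left) and over the genes of the E14 hindstomach and small intestine sets (right); each row is a wild-type group and each point a pair of libraries. E16 hindstomach (red) is below E16 small intestine on the left (means 0.773 and 0.815). On the right its mean is above that of small intestine (0.517 and 0.448), with pairs from 0.501 to 0.532 and from 0.416 to 0.501.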

How the data were processed

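Per the submitters' processing notes, Bowtie2, STAR 2.5.3a, MACS2, HTSeq and mm9 were used in the series, with no role given. Libraries were made with a SMARTer-Seq v4 low-input kit and read as 75 bp single-end reads, per the labels' protocols. The values are the authors' deposited counts of reads per gene symbol, whole numbers without normalization, for 24015 symbols, of which 22709 matched a mouse name table. The counting's strand setting is not given in the sources used here, so overlapping or antisense genes and near-identical copies could have been counted together or apart. 6 columns of adult samples were not used.

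One model covered 27 embryonic libraries of 13 groups, in edgeR 4.0.16 in R 4.3.3 (quasi-likelihood test, TMM scaling, filterByExpr with a minimum count of 10, Benjamini-Hochberg adjustment over 17239 genes). Fold changes are log2, knockout minus hindstomach unless said otherwise, and their standard errors come from the same fit. Log levels used a prior count of 2. Where a group had 0 counts, a bound was taken from a floor of 3 counts per library. The gene lists and tests were chosen with earlier results of these data known, and the labels fixed the libraries compared. Named genes were Cdx2, the 12 genes of largest fold change called in each direction at 20 CPM or more without overlap (predicted genes, pseudogenes, mitochondrial and sex-linked genes left out), members of each list with the largest or smallest differences or a role the text explains, and the 5 highest genes of each E14 set. Alternatives were RLE scaling, DESeq2 1.42.0, no filter, fewer libraries in the fit, no fold minimum, equal depth, a replicate block and leaving out each library. The fit was also run on simulated counts of the knockout and hindstomach libraries only, with changes balanced in direction. That run cannot test the spread shared over 27 libraries or the scaling between groups. Chromatin samples of the series were not used here.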

Additional observations from a re-analysis of the deposited data

How the results depend on the processing

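Calls between knockout and hindstomach numbered 9254 with DESeq2, 9566 with RLE scaling, 9681 with the replicate block and 8875 to 9782 with each library left out, and 6310 among genes at 5 CPM or more in E14 hindstomach (fewer genes tested by construction). Replicate numbers were shared by 2 pairs only and the pairs' deviations were not correlated (r -0.015 and 0.025), so the block shows no pairing. Hindstomach against small intestine rose from 4422 to 6657 without a fold minimum, and each library left out gave 3370 to 3639. Genes within 2-fold numbered 1573 with a 99% interval. The median of the E14 hindstomach set was -0.93 with RLE scaling, -1.15 to -0.924 with each library left out, and -1.55 with 1295 genes drawn from the E14 libraries alone; that choice gave -1.33 for the intestinal set and -0.27 for the forestomach set, and the cause was not tested. The forestomach set ranged from -0.08 to 0.07 with each library left out, so its median has no firm sign. Mean likeness to E16 hindstomach was 0.830 unfiltered and 0.756 with Pearson's r, and to small intestine 0.857 unfiltered.

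Of 124 genes named, 118 kept their direction and call with DESeq2, 123 with RLE scaling and 114 with the knockout rescaled to a median change of 0, a setting chosen after seeing the data. It raises every gene by about the same amount, so by construction it put genes just below 0 above it (Creb3l3 0.10, Cdh17 0.087, Mttp 0.12 and Ihh 0.16) and says nothing about these genes themselves. The block, in which knockout replicate 3 has no partner, turned Oat to -0.12, gave calls for Cdx1 (-2.14), Isx (-3.18), Creb3l3 (-1.60) and Lct (-1.11) and lost those of Fos (-0.87) and Anks4b (0.98), and equal depth turned Apob to -0.013. With each library left out Muc1 ranged from -0.17 to 0.23, Foxq1 from -0.054 to 0.26, Creb3l3 from -1.60 to 0.22 and Oat from -0.12 to 0.85; none of these genes was called against hindstomach in the main comparison. Groups of 2 or 3 libraries limit every comparison, and those with the knockout also carry the strain difference and the lower depth of knockout replicate 3.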

Other observations

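Pancreas and liver genes were read as markers of neighbouring endoderm. Of 12 pancreas genes tested, 0 were higher in the knockout than in hindstomach and 7 were lower (58.3%, beside 34.6% of all genes; median log2 fold change -3.04), and they took 0.250% and 0.277% of hindstomach counts against 0.00686% to 0.0496% in the knockout and 0.0672% and 0.0723% in small intestine. Of 6 liver genes, 3 were higher in the knockout (50%, beside 21.6% of all genes) and 0 lower (median 2.60). They took 0.0336%, 0.0504% and 0.0571% of knockout counts, 0.00886% and 0.00821% in hindstomach and 0.0153% and 0.0137% in small intestine. Malat1, a nuclear RNA, took 0.821%, 1.18% and 1.05% of knockout counts against 0.264% and 0.222% in hindstomach, and Lars2 took 0.0437%, 0.171% and 0.9501% against 0.0557% and 0.0648%, with knockout replicate 3 highest. Both were chosen after their values were seen, and their part in other differences was not tested.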
